A study of Mus musculus with 2 samples.

Results

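The 39 genes described here encode the proteins that bring glucose into the cell, break it down to lactate, store it as glycogen or send it through the pentose phosphate pathway. They were taken by gene symbol from a fixed list, and all 39 symbols were found among the 55536 genes of the mm10 annotation GENCODE M21 that the gene tables hold. Aldoa had 2 gene identifiers, and the one with the higher level was kept. The other had 0.29 TPM (TPM is a level per transcript length, scaled to one fixed total in every library) in replicate 1 and 0.08 TPM in replicate 2. The RNA came from primary neutrophils of the spleen of virgin adult male B6CASTF1/J mice aged 65 days, hybrids whose mother was C57BL/6 and whose father was CAST/EiJ. There was 1 group, with no treatment named, and it had 2 total RNA libraries numbered as biological replicates 1 and 2. A directional kit was used on 300 ng of RNA per library, and ERCC spike-ins were added. Both carry the same donor identifier, so the spread between them may be technical, and how the cells were isolated is not given in the sources used here.

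Neutrophils respire little and are known to live largely on glycolysis. Glucose is phosphorylated by a hexokinase, split by aldolase into 3-carbon sugars in upper glycolysis, and turned into pyruvate with a gain of ATP in lower glycolysis. Glycogen is the cell's glucose store, which glycogen phosphorylase opens when glucose is short. The pentose phosphate pathway makes NADPH, the fuel of the NADPH oxidase with which neutrophils make superoxide, and it returns its sugars to glycolysis through transaldolase and transketolase.

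A few sets of sequence bear on how these genes were read, and all are from the mm10 transcripts of GENCODE M21. The first set is the pair of alternative Pkm exons. A transcript holds 1 of them, and this decides whether the M2 or the M1 form of pyruvate kinase is made. Both exons are 167 nt long on the plus strand, the M2 exon at chr9:59675568-59675734 and the M1 exon at chr9:59675029-59675195. Capitals mark the 64 bases that differ between them, while the other 103 bases (61.7%) are the same.
Pkm exon of M2 transcripts: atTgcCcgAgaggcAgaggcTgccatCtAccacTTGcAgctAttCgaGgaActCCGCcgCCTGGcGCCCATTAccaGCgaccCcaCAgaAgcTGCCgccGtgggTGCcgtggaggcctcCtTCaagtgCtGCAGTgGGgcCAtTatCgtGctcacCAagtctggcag
Pkm exon of M1 transcripts: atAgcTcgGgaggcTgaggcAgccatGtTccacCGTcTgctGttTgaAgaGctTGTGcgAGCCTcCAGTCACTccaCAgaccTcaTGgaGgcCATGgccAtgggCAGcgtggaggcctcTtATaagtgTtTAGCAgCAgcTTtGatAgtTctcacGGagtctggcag

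The second set is the coding start of 3 Hk1 transcripts, all on the minus strand, up to the coding exon that they share. Capitals mark the start codon. Hk1-202 (chr10:62340013-62340075) carries the start of the widespread somatic form, whose first segment is known to bind hexokinase 1 to the outer mitochondrial membrane. Hk1-201 (spliced from coding bases within chr10:62353058-62358362) and Hk1-205 (chr10:62342501-62342560) begin with other exons and lack it.
Hk1-202 start: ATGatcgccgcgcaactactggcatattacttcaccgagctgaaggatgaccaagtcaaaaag
Hk1-201 start: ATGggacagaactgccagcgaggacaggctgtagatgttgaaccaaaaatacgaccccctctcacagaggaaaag
Hk1-205 start: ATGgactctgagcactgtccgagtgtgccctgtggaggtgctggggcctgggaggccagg

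The third set shows why reads of Gapdh are hard to place. Gm14760 is a processed pseudogene, an intronless copy of Gapdh on chromosome X, and it differs from the 999 coding bases of Gapdh at 1 base. The longest stretch that both share without a difference is 756 bases. The stretch below covers coding bases 751 to 850, at chr6:125162294-125162393 in Gapdh and chrX:80194003-80194102 in Gm14760, both on the minus strand, and the capital marks the single difference.
Gapdh coding stretch: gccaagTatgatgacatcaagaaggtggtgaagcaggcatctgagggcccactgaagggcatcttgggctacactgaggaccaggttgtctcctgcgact
Gm14760 stretch: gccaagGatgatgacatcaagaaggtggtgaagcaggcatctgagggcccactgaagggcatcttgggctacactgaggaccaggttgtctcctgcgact

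The gene tables hold 18387963 expected counts in replicate 1 and 18090108 in replicate 2. Protein-coding genes took 32.8% of all TPM in replicate 1 and 45.4% in replicate 2, so the TPM values of these genes tend to be higher in replicate 2. All 13 neutrophil markers, such as S100a8, Ly6g and Csf3r, stood at 10 TPM or more in both libraries, and together they reached 38461 TPM in replicate 1 and 76273 TPM in replicate 2. Sums for markers of other cells, in TPM for replicate 1 and replicate 2, were 5.6 and 19.1 for 6 B cell markers, 32.4 and 55.6 for 6 T cell markers, 108 and 145 for 7 monocyte and macrophage markers, 70.9 and 170 for 8 erythroid markers, and 17.7 and 14.0 for 5 platelet markers. Of the T cell sum, Cd3d alone made 31.8 and 53.3 TPM, while Cd3e and Trac were at 0.11 TPM or less in both libraries. Within the monocyte and macrophage list C1qa, C1qb and C1qc were at 0.2 TPM or less, whereas Csf1r had 68.6 and 80.5 TPM, Cd68 had 25.2 and 45.7 TPM, Adgre1 had 7.61 and 10.6 TPM, and Vcam1 had 6.67 and 8.02 TPM. In bulk RNA, fewer cells of a type and less RNA per cell cannot be told apart, and this holds for every level given below.

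Most of the 39 genes were well expressed. In both libraries 31 stood at 10 TPM or more, where 22.3% of the 22028 protein-coding genes did, and 15 stood at 100 TPM or more, where 2.5% did. Aldoc alone was under 1 TPM in both, a range that held 54% of protein-coding genes. The median of the 39 was 30.8 TPM in replicate 1 and 36.0 TPM in replicate 2 (33.4 ± 3.69, SD, n = 2). Over all protein-coding genes the median was 0.33 and 0.4 TPM, and over those above 0 TPM in either library it was 4.03 and 4.87 TPM. Of the TPM of all protein-coding genes, the 39 held 1.17% in replicate 1 and 1.21% in replicate 2. Tkt, Pkm and Gapdh were the highest and ranked 83, 84 and 87 among all protein-coding genes by mean TPM.

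**Figure D1:**
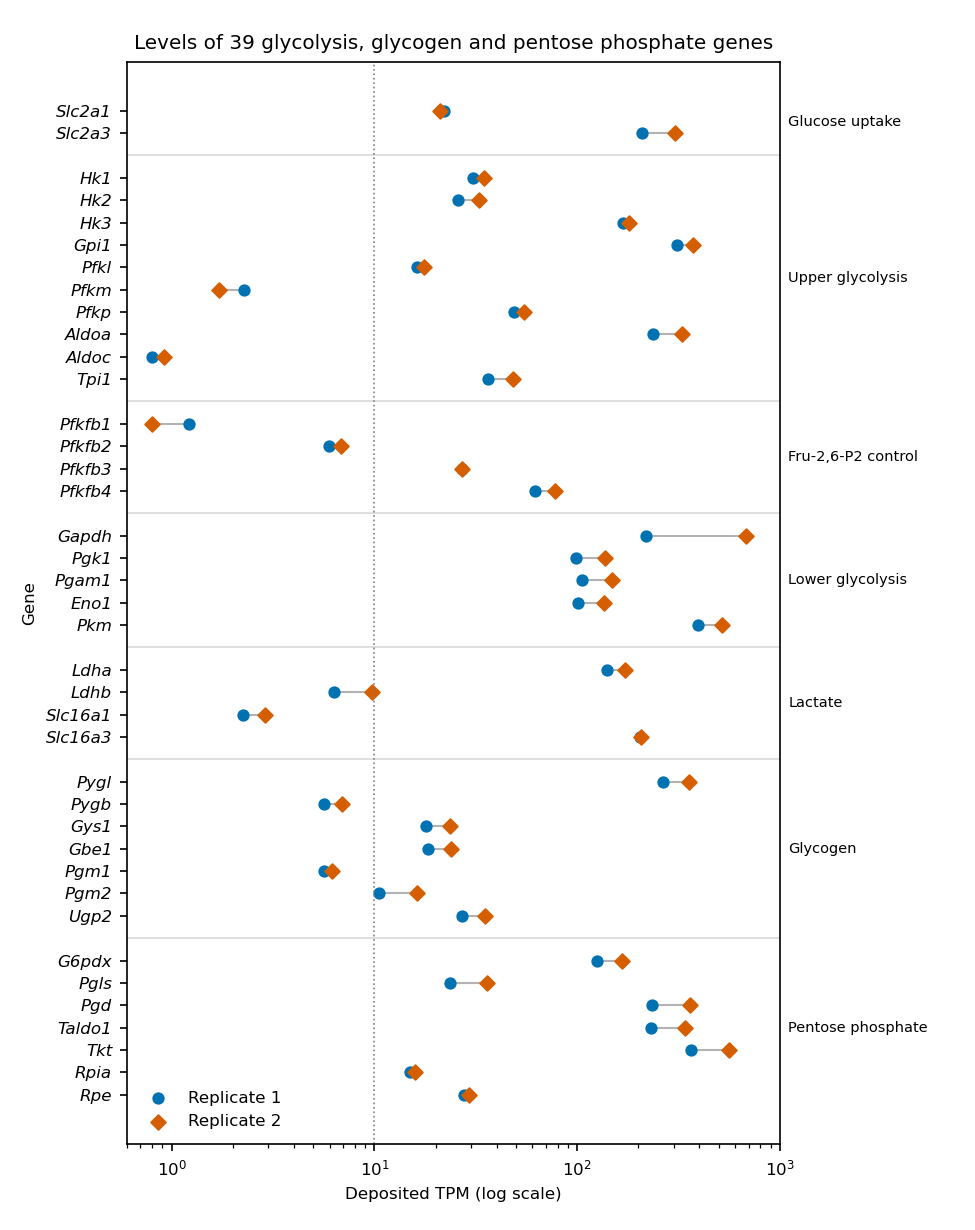
Deposited TPM of the 39 genes on a log scale, grouped by role, with circles for replicate 1 and diamonds for replicate 2 joined by a line. The dotted line marks 10 TPM, and 31 genes lie at or above it in both libraries, with Gapdh the widest pair at 219 and 680 TPM.

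Of the 2 glucose transporter genes among the 39, the higher was Slc2a3, the high-affinity transporter GLUT3. It had 209 TPM in replicate 1 and 305 TPM in replicate 2, while Slc2a1, the widespread transporter GLUT1, had 21.9 and 21.1 TPM. Slc2a3 made 92.0% ± 2.15 of the TPM of the pair (SD, n = 2). The order of the transporters was the same in both libraries.

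In upper glycolysis the hexokinase made was mainly Hk3, which is known as the hexokinase of myeloid cells. Hk3 had 168 TPM in replicate 1 and 179 TPM in replicate 2, Hk1 had 30.8 and 34.7 TPM, and Hk2 had 25.9 and 32.7 TPM. The Hk3 share of the 3 was 73.7% ± 1.48. Hk1 and Hk2 lay close to each other, at 32.7 ± 2.79 and 29.3 ± 4.76 TPM, with Hk1 the higher in both libraries. Gpi1, which turns glucose 6-phosphate into fructose 6-phosphate, was the highest gene of upper glycolysis at 309 and 372 TPM.

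Phosphofructokinase, the committed step of glycolysis, was represented mainly by Pfkp, the platelet-type subunit. Pfkp had 48.9 TPM in replicate 1 and 54.8 TPM in replicate 2, or 73.3% ± 1.05 of the TPM of the 3 subunit genes. The liver-type Pfkl took 23.9% ± 0.310, at 16.3 and 17.5 TPM, and the muscle-type Pfkm had 2.26 and 1.71 TPM. Most of the Pfkp level sat on transcripts annotated with a retained intron, as given below. On protein-coding transcripts alone, Pfkp had 5.82 TPM in replicate 1 and 14.1 TPM in replicate 2 by RSEM, against 6.15 and 6.04 TPM of Pfkl, so in replicate 1 Pfkp no longer led Pfkl. By kallisto Pfkp kept the lead on such transcripts, at 13.2 and 19.0 TPM against 7.99 and 9.15 TPM. The enzymes that make and break fructose 2,6-bisphosphate, the strongest known activator of phosphofructokinase, were led by Pfkfb4. It had 61.9 TPM in replicate 1 and 77.9 TPM in replicate 2, which was 66.8% ± 3.45 of the 4 genes. Pfkfb3 followed at 27.0 TPM in each library, Pfkfb2 was at 6.40 ± 0.601 TPM, and Pfkfb1 was at 1.01 ± 0.297 TPM.

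The aldolase was Aldoa, with 235 TPM in replicate 1 and 328 TPM in replicate 2, against 0.8 and 0.92 TPM of Aldoc. Aldoa made 99.7% ± 0.0415 of the pair. Tpi1, which interconverts the 3-carbon sugars that aldolase releases, had 36.3 and 48.2 TPM and was lower in both libraries than Aldoa and Gapdh, its neighbours in the pathway.

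The 5 lower glycolysis genes were all at 98.9 TPM or more in both libraries. Pkm, pyruvate kinase, had 392 TPM in replicate 1 and 519 TPM in replicate 2. Gapdh, the step that reduces NAD to NADH, had 219 and 680 TPM, the widest gap of all 39 genes. Pgk1, which makes ATP from 1,3-bisphosphoglycerate, had 98.9 and 137 TPM, Pgam1 had 105 and 149 TPM, and Eno1 had 100 and 136 TPM. The means of those 3 were 118 ± 27.2, 127 ± 31.1 and 118 ± 25.1 TPM. Pgam1 was the highest of them in both libraries, while Pgk1 and Eno1 changed order. By kallisto Eno1 was the highest of the 3 instead, at 211 TPM in replicate 1 and 291 TPM in replicate 2.

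Lactate dehydrogenase was almost wholly Ldha, the subunit known to favour the making of lactate. Ldha had 140 TPM in replicate 1 and 172 TPM in replicate 2, against 6.29 and 9.77 TPM of Ldhb, a share of 95.2% ± 0.759. Among the lactate transporters Slc16a3, the exporter MCT4, had 205 and 207 TPM, and Slc16a1, the transporter MCT1, had 2.25 and 2.90 TPM. The Slc16a3 share was 98.8% ± 0.206, and its TPM was nearly the same in both libraries.

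Among the glycogen genes 1 gene of breakdown, Pygl, stood above those of synthesis. Pygl, the liver-type glycogen phosphorylase, had 266 TPM in replicate 1 and 355 TPM in replicate 2, and made 98.0% ± 0.122 of its pair with the brain-type Pygb. Gys1, glycogen synthase, had 17.9 and 23.6 TPM. Gbe1, the branching enzyme, had 18.5 and 23.7 TPM, and Ugp2, which makes the UDP-glucose used in synthesis, had 27.0 and 35.3 TPM. Pygl lay far above each of these 3 genes in both libraries. Pygb, also a gene of breakdown, lay below each of them, at 5.66 TPM in replicate 1 and 6.92 TPM in replicate 2. Pgm2 had 10.5 and 16.2 TPM and made 68.8% ± 5.17 of the phosphoglucomutase pair with Pgm1, which was at 5.89 ± 0.389 TPM.

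All 7 pentose phosphate genes stood at 10 TPM or more. Tkt, transketolase, had 365 TPM in replicate 1 and 561 TPM in replicate 2, and its mean of 463 ± 139 TPM was the highest of the 39 genes. It led in neither library, since Pkm was higher in replicate 1, at 392 TPM, and Gapdh in replicate 2, at 680 TPM. Next by mean were Pkm at 456 ± 89.8 TPM and Gapdh at 450 ± 326 TPM. By kallisto the means were 625 TPM for Gapdh, 403 TPM for Pkm and 395 TPM for Tkt, so this order is not firm. Of the 2 NADPH-making steps, G6pdx, glucose 6-phosphate dehydrogenase, had 125 TPM in replicate 1 and 167 TPM in replicate 2, and Pgd, 6-phosphogluconate dehydrogenase, had 234 and 359 TPM. Pgls, the lactonase between them, was lower, at 23.6 and 36.0 TPM. Taldo1, transaldolase, had 231 and 341 TPM. The genes that interconvert the pentose phosphates were also low, with Rpe at 27.5 and 29.3 TPM and Rpia, the lowest of the 7 in both libraries, at 15.0 and 15.9 TPM.

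**Figure D2:**
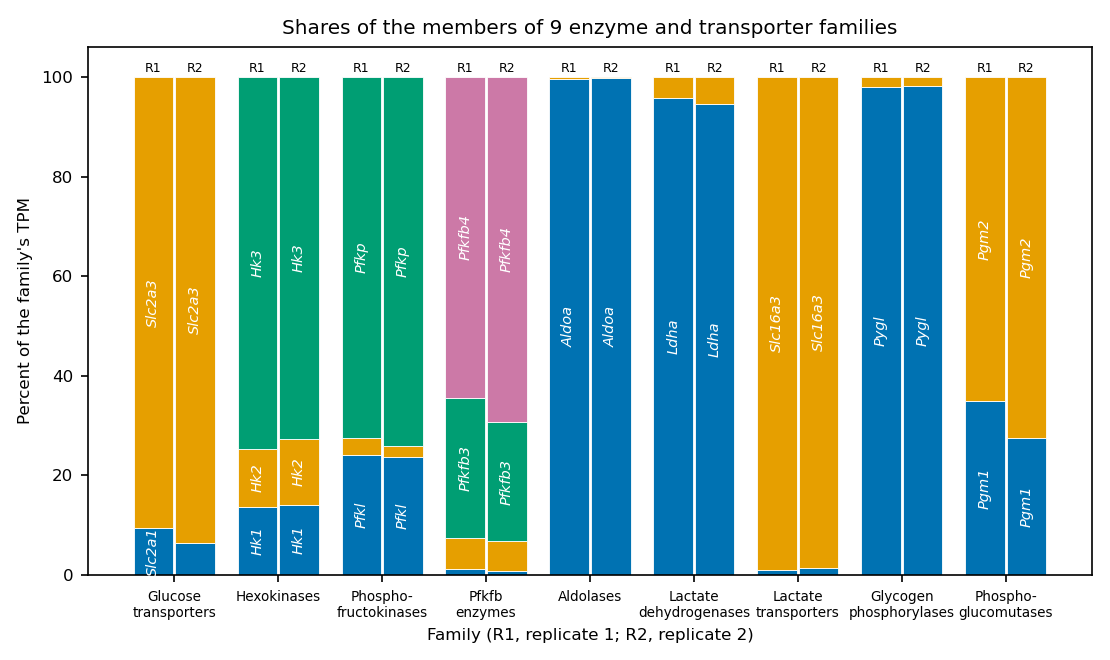
Share of each gene in the summed TPM of its family, in percent, with replicate 1 left of replicate 2 in each of 9 families. One gene makes 92.0% or more of the mean of both libraries in 5 families, and the widest gap between the libraries is that of Pgm2, at 65.1% in replicate 1 and 72.4% in replicate 2.

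Set side by side by role, the median TPM in replicate 1 and in replicate 2 was 115 and 163 for uptake, 33.5 and 41.4 for upper glycolysis, 16.5 and 16.9 for the Pfkfb genes, 105 and 149 for lower glycolysis, 72.9 and 90.7 for lactate, 17.9 and 23.6 for glycogen, and 125 and 167 for the pentose phosphate genes. On the log2 scale, with 0.1 TPM added, the median of lower glycolysis exceeded that of upper glycolysis by 1.76 ± 0.15 and that of the glycogen genes by 2.60 ± 0.08 (SD, n = 2). The pentose phosphate median exceeded the glycogen median by 2.81 ± 0.02. The sizes depend on the table and the summary. Lower minus upper glycolysis was 2.76 with the kallisto-layout TPM and 2.62 with means in place of medians, and lower glycolysis minus glycogen was 3.74 and 3.20. Pentose phosphate minus glycogen was 3.01 and 2.15. Lower glycolysis minus pentose phosphate came to -0.21 ± 0.06, and this sign did not hold. It was 0.72 with the kallisto-layout TPM, in which Eno1 and Gapdh are higher, and 1.06 with means. These groups share their libraries and hold 2 to 10 genes, so no test was made between them.

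Transcripts were read from both deposited transcript tables, whose column layouts are those that RSEM and kallisto write. Pkm was read alike by both. Transcripts with the M2 exon shown above (Pkm-201) had 344 TPM in replicate 1 and 445 TPM in replicate 2 by RSEM, against 9.42 and 12.7 TPM for those with the M1 exon (Pkm-202 and Pkm-203). The M2 exon made 97.3% ± 0.0856 of the sum by RSEM and 96.8% ± 0.0187 by kallisto (SD, n = 2). Transcripts with neither exon held 9.83% and 11.9% of the Pkm TPM by RSEM and are outside this share. A gene of uncertain status, Gm49759, runs in the GENCODE models over both exons and took 1699 expected counts in replicate 1 and 1504 in replicate 2, beside 18930 and 21030 for Pkm.

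Hk1 was not read alike. By RSEM the Hk1-202 start made 52.7% (replicate 1) and 67.0% (replicate 2) of the Hk1 TPM, and by kallisto it made 21.8% and 24.2%. Hk1-201 took 26.8% and 25.0% by RSEM, and 34.3% and 52.1% by kallisto. Hk1-205 took 6.08% and 0% by RSEM, and 32.2% and 18.3% by kallisto. The gene level of Hk1 itself was nearly the same by both, so the tables differ in which start they give the reads to and not in how many.

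Tkt held its level mainly on a transcript not annotated as coding. RSEM gave Tkt-209, classed as a processed transcript, 202 TPM in replicate 1 and 313 TPM in replicate 2, and kallisto gave it 213 and 341 TPM. The full coding transcript Tkt-201 got 36.0 and 46.8 TPM from RSEM, and 26.3 and 30.4 TPM from kallisto. Tkt-209 covers 94.3% of the 1869 coding bases of Tkt-201 and has 12 of its 14 exons in common with it. It begins with another first exon and ends in a last exon of 288 nt, where that of Tkt-201 has 1384 nt. Both tables gave Tkt-209 the larger share in both libraries, at 55.2% and 55.7% of the gene by RSEM.

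Over the 31 members at 10 TPM or more, protein-coding transcripts took a median of 80.9% of the gene's TPM in replicate 1 and 82.6% in replicate 2 by RSEM. Over all 4907 such protein-coding genes the medians were 72.8% and 76.0%. In 5 members, Pfkl, Pfkp, Pfkfb4, Tkt and Rpe, protein-coding transcripts took less than 50% of the mean by both tables, as they did in 18.9% of 4901 protein-coding genes at 10 TPM or more. The 5 of 31 members are thus near the background. In Pfkp they took 11.9% and 25.8% by RSEM, and retained-intron transcripts took 88.1% and 69.6%. By kallisto the retained-intron share of Pfkp was 70.2% and 58.8%. In Rpe most of the remainder was on transcripts marked for nonsense-mediated decay, such as Rpe-205 at 33.2% and 26.5% by RSEM. The RNA was total RNA, in which unspliced transcripts are also read. In 25 of the 31, both tables put the same transcript in the lead.

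**Figure D3:**
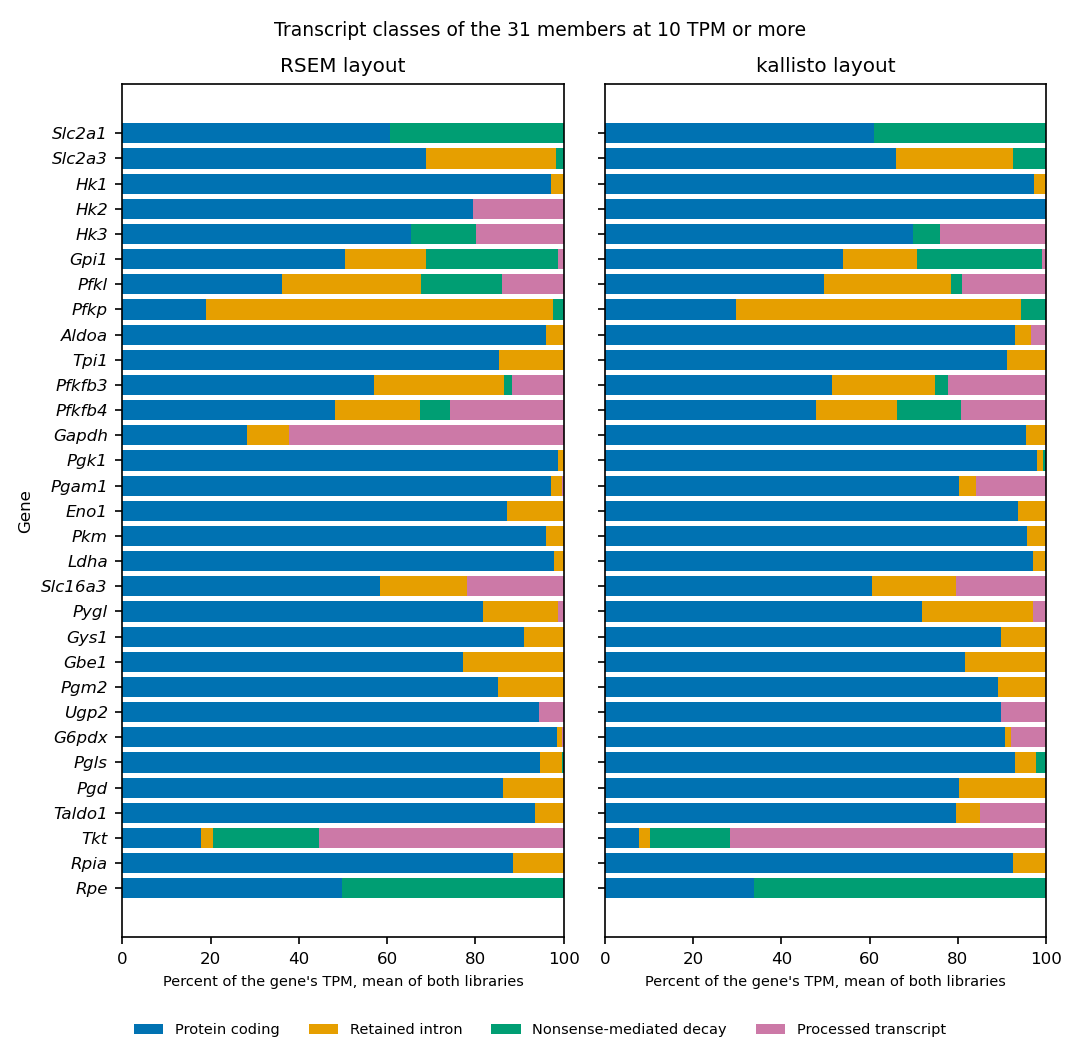
Percent of each gene's TPM on 4 annotated transcript classes, as the mean of both libraries, for the 31 members at 10 TPM or more, by the RSEM layout and by the kallisto layout. Tkt is led by processed transcripts and Pfkp by retained introns in both panels, whereas Gapdh changes from 28.2% protein-coding by RSEM to 95.4% by kallisto.

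With 1 group, the only comparison between libraries is that of replicate 1 with replicate 2. It tests these 2 libraries against counting error and says nothing of conditions. With the expected counts rounded and scaled by TMM, a two-sided exact binomial test adjusted by Benjamini-Hochberg over 15118 genes called 23 of the 39 members at 0.05, where it called 32.1% of all genes tested. Of these, 6 were higher in replicate 1 (15.1% of all genes) and 17 in replicate 2 (16.9% of all genes). Deep genes are called more often. Of the 31 members with 1000 or more counts in both libraries together 23 were called, where 54.8% of all such genes were, and 17 were higher in replicate 2, where 29.9% were. Members' log2 ratios, replicate 1 over replicate 2, had a median of -0.12, while the median of all genes tested was 0.0003.

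The calls are given by role below, but the role groups are small and no test was made between them. Among all genes with 1000 or more counts, 54.8% were called in either direction and 29.9% were called higher in replicate 2. All 5 lower glycolysis genes and 5 of the 7 pentose phosphate genes were higher in replicate 2, as were 3 of the 7 glycogen genes (Pygl, Pgm2 and Ugp2), and none of these 3 groups had a gene called higher in replicate 1. In upper glycolysis Gpi1, Aldoa and Tpi1 were higher in replicate 2, while Hk3, Pfkl and Pfkp were higher in replicate 1. Slc2a3 was higher in replicate 2, and Slc2a1, Pfkfb3 and Slc16a3 were higher in replicate 1. Most of these differences were small. Without Gapdh, the called genes were 1.09-fold to 1.31-fold higher in replicate 2, or 1.12-fold to 1.18-fold higher in replicate 1. Without a call were 16 members, of which 8 had fewer than 1000 counts in both libraries together. In TPM 35 of the 39 were higher in replicate 2, among them 4 of the 6 called higher in replicate 1 on scaled counts. Protein-coding genes as a whole took 32.8% of all TPM in replicate 1 and 45.4% in replicate 2. The share of all protein-coding genes with a higher TPM in replicate 2 was not counted, so the 35 cannot be read as particular to the members. For Pgd, the second NADPH-making step, the counts were 10330 and 13702, a log2 ratio of -0.39 (adjusted p = 4.49e-94, exact binomial test). For Hk3 they were 9324 and 8456, a log2 ratio of 0.16 (adjusted p = 3.65e-12, exact binomial test).

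Gapdh was the only member called with at least a 1.5-fold difference, where 10.6% of all genes were, and 5.5% were higher in replicate 2. Its expected counts were 3491 for replicate 1 and 8455 for replicate 2, a log2 ratio of -1.26 (2.39-fold higher in replicate 2). The deposited TPM intervals of the gene table were 203 to 227 in replicate 1 and 635 to 675 in replicate 2. They belong to the posterior mean TPM in that table, so the TPM of 680 in replicate 2 can lie outside them. Counted together with the 84 genes that share a 100-nt stretch with it, the sum was 5487 and 9317 counts, and the log2 ratio was -0.75 (1.68-fold). The scaling bears on all of these calls. With ERCC totals in place of TMM, the median of all genes moved to -0.74, and 37 members were called, all of them higher in replicate 2. Over all genes tested, that scaling called 73.8% higher in replicate 2 and 1.24% higher in replicate 1, so the shift was not particular to the members. The B cell, T cell, monocyte and macrophage, erythroid and neutrophil marker sums given above were also higher in replicate 2. Those sums are in TPM, which for protein-coding genes tends to be higher in replicate 2, while the calls rest on scaled counts. On scaled counts the log2 ratio was negative for all 13 neutrophil, all 6 B cell and all 8 erythroid markers. Among the neutrophil markers it ran from -0.03 for Csf3r to -1.11 for S100a8. Within the T cell and the monocyte and macrophage lists it was negative except for Cd3e, C1qa and C1qb. The part of these cells in the differences was not tested.

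**Figure D4:**
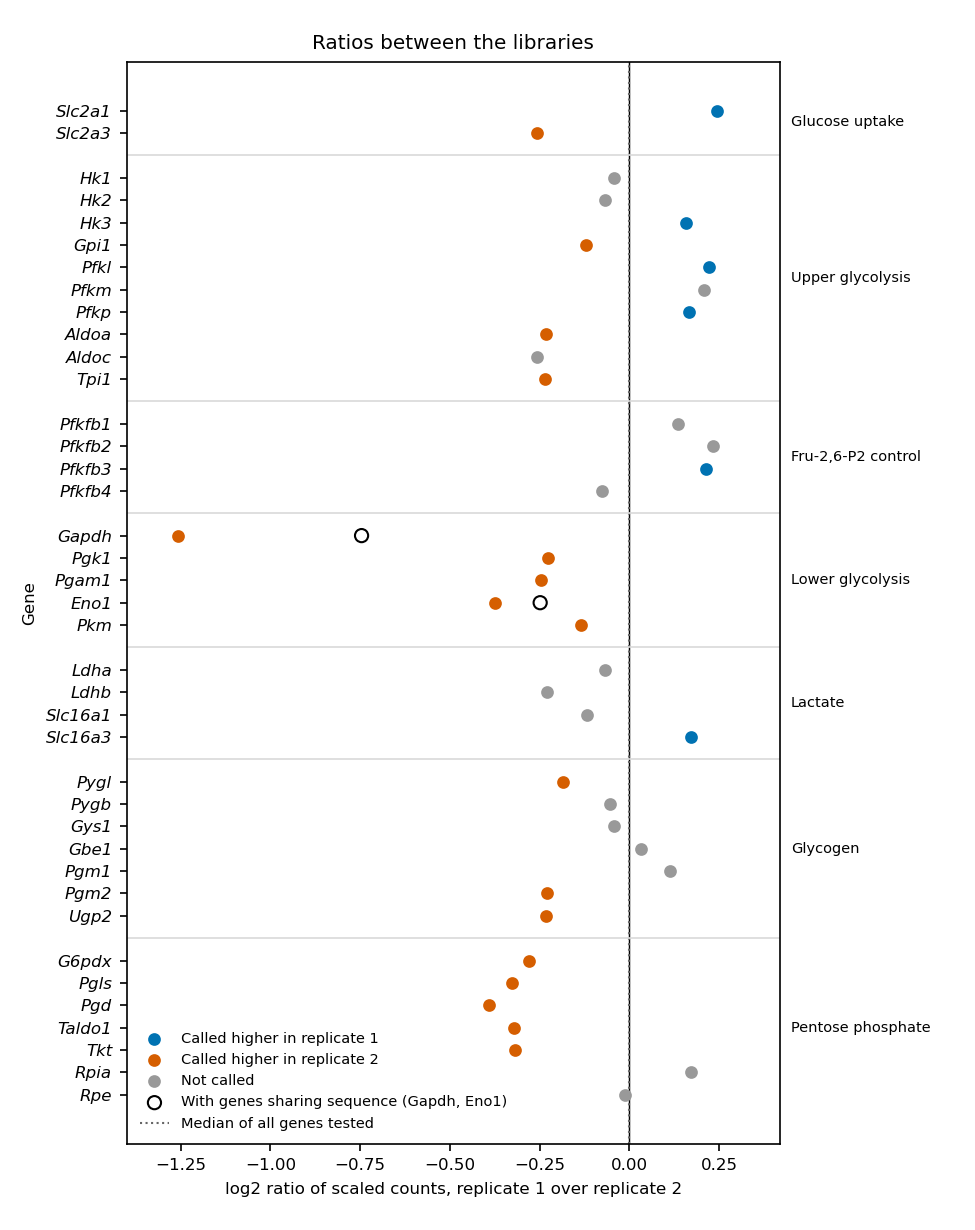
Log2 ratio of scaled counts, replicate 1 over replicate 2, for the 39 genes by role, coloured by the exact binomial call. Open circles give Gapdh and Eno1 counted with the genes that share sequence with them. Gapdh stands alone at -1.26, while all others lie between -0.39 and 0.24.

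The 2 quantifications gave like levels for most members. RSEM and kallisto TPM lay within 1.5-fold of each other, in both libraries, for 36 of the 39. A gap over 2-fold, of one direction and in both libraries, was seen in 1 of the 38 members at 1 TPM or more, where it was seen in 13.2% of all genes and 4.19% of protein-coding genes. That gene was Eno1, enolase, to which RSEM gave 100 TPM in replicate 1 and 136 TPM in replicate 2, and kallisto 211 and 291 TPM. Its log2 ratio of RSEM over kallisto was -1.07 and -1.10. The short transcript Eno1-208, of 345 nt, got 4.66 and 1.83 TPM from RSEM but 128 and 121 TPM from kallisto. For Eno1-202, the longer coding transcript, the tables were nearly the same, with 70.3 and 118 TPM from RSEM and 67.9 and 118 TPM from kallisto.

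Gapdh lay just inside that limit in replicate 1. RSEM gave it the 219 TPM in replicate 1 and 680 TPM in replicate 2 named above, and kallisto gave it 431 and 819 TPM. RSEM put 59.4% and 64.6% of the gene on Gapdh-208, a processed transcript of 483 nt, which had 0.309 and 0 TPM by kallisto. The copies were read differently as well. Gm14760, shown above, got 85.1 TPM in replicate 1 and 17.3 TPM in replicate 2 from RSEM but 0 in both from kallisto, while the copy Gm7336 got 2.40 and 3.66 TPM from RSEM and 94.1 and 283 TPM from kallisto. Of the 84 genes that share sequence with Gapdh, 42 had 0 expected counts in both libraries and 5 had more than 10 counts in both together.

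**Figure D5:**
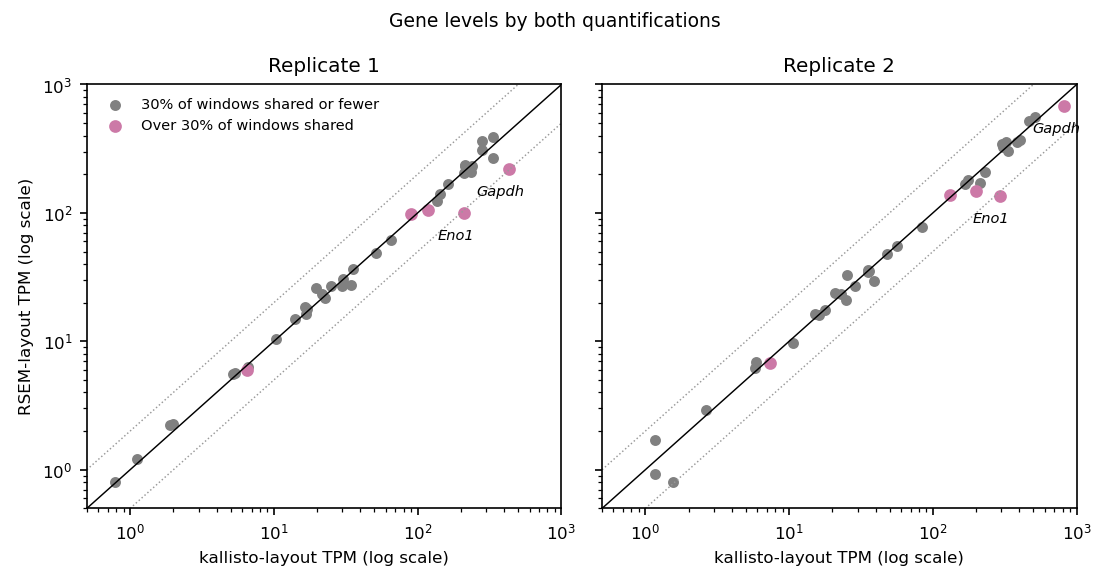
TPM by the RSEM layout (vertical) against TPM by the kallisto layout (horizontal), log scales, 1 point per gene and 1 panel per library. The solid line marks equal values and the dotted lines 2-fold, and purple points have over 30% of their 100-nt windows in other genes. Eno1 lies below the lower dotted line in both panels.

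Shared sequence was counted as the share of 100-nt windows of a member's leading transcript that also occur in transcripts of another gene. In 28 members no window was shared, and in 6 fewer than 10% were. The other 5 were Gapdh with 71.9% of the windows of Gapdh-208, Pgk1 with 67.0%, Eno1 with 59.0%, Pgam1 with 39.7% and Pfkfb2 with 39.2%. For Pgk1, Pgam1 and Pfkfb2 the other genes held few counts, at most 103 in a library. For Eno1 they held many. Eno1b, a gene that shares much of its sequence, took 3422 expected counts (replicate 1) and 3517 (replicate 2), and the pseudogene Gm4735 had 808 and 1189, beside 3507 and 4598 for Eno1 itself. Summed with these genes, Eno1 had 7737 and 9305 counts and a log2 ratio of -0.25, against -0.37 for Eno1 alone. The levels of Gapdh and Eno1 are therefore uncertain to the extent that reads were divided among copies.

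Beyond the 39, 79 further genes of glucose metabolism were listed, and all were found. Of these, 21 stood at 10 TPM or more in both libraries and 31 were under 1 TPM in both. The highest was Adpgk, the ADP-dependent glucokinase, with 295 TPM in replicate 1 and 344 TPM in replicate 2, above Hk3. Eno1b followed at 95.2 and 115 TPM, within the limits just given. Glycogen genes among them included Gyg, the glycogen primer, at 44.8 and 65.8 TPM, the phosphorylase kinase subunits Phkg2 (53.3 and 58.3 TPM), Phka2 and Phkb, the phosphatase subunits Ppp1r3b and Ppp1r3d, the lysosomal glucosidase Gaa, and the kinases Gsk3a and Gsk3b. The transporter Slc2a6 had 46.9 and 57.6 TPM, and Bsg, the partner protein of the lactate transporters, had 24.9 and 42.1 TPM. Pyruvate entry and use were represented by Mpc1, Mpc2, Pdha1 and Pdhb, which lay between 21.8 and 46.8 TPM. Gpd2, H6pd and Khk were also among the 21. Of the 55 genes tested, 1 was called higher in replicate 1 (Adpgk, log2 ratio 0.07) and 8 in replicate 2 by the same exact binomial test. That test called 15.1% of all genes higher in replicate 1 and 16.9% in replicate 2. The 8 of 55 are thus near the share over all genes, while the 1 of 55 is well below it.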

How the data were processed

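Per the labels, total RNA of 2 neutrophil libraries was sequenced with a directional kit. The authors deposited a gene table and a transcript table with the columns that RSEM writes, and a second transcript table with the columns that kallisto writes, per the file headers. All used mm10 and GENCODE M21, per the notes deposited with the files. Which programs and versions made them is not stated in the sources used here. The deposited expected counts and estimated counts are not normalized. The deposited TPM is scaled to one fixed total over all entries of a library, with tRNA and spike-in entries included. The deposited FPKM served as an alternative unit, and the deposited percent that each isoform makes of its gene was not used, since shares were computed from TPM. The TPM intervals are the authors' own. No column lacked a sample (0).

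The 39 members, the role groups and the other lists were chosen with earlier results of these data known. Levels are deposited TPM with the mean and SD of 2 libraries. Expected counts were rounded to whole numbers. Genes whose counts summed to 10 or more over the libraries were tested with scipy 1.17.1, and p-values were adjusted with statsmodels 0.14.6 at 0.05. TMM factors came from edgeR 4.0.16 and size factors from DESeq2 1.42.0, with no model fitted by either, since 1 library a side leaves no residual degrees of freedom. Log2 ratios add 0.5 to each count, and comparisons of the tables add 0.1 TPM. The test was checked on simulated counts for 15108 genes, where it called 71 of 100 genes changed 2-fold and 88 of 100 changed 4-fold in the right direction, and 5 of 14908 unchanged genes. Those counts were drawn with counting error alone, so few false calls were fixed in advance. The check cannot give the rate of false calls in the real libraries. The test covers counting error only, because it has no term for variation between libraries. PCR reads with no molecular identifiers cannot be taken as separate molecules, so its p-values can be too small. All 39 members passed the filter and were tested. Counts were whole in both libraries for 28 members, so reads of the others were shared out between genes. Values in each library are given for the highest gene of every family, for members called with at least 1.5-fold, and for members more than 2-fold apart between the tables, and other pathway genes are named at 10 TPM or more, apart from 1 that is not reported here.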

Additional observations from a re-analysis of the deposited data

How the results depend on the processing

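Scaling by DESeq2 size factors, total counts or kallisto counts, and other filters on low counts, called 23 to 25 members, with 5 or 6 higher in replicate 1 and 17 to 20 in replicate 2. ERCC totals called 37, with 0 higher in replicate 1 and 37 in replicate 2, where 1.24% and 73.8% of all genes tested were. Asking for at least 1.5-fold left 1, with 0 and 1. The members' median was 86.4 TPM when TPM was rescaled to protein-coding genes, by construction. In expected counts, which are not per length, shares were 94.6% for Slc2a3, 64.4% for Hk3, 18.5% for Pfkl, 99.53% for Aldoa, 96.8% for Ldha and 97.0% (96.994%) for Slc16a3. By kallisto they were 75.3% for Hk3, 99.63% for Aldoa, 98.98% for Slc16a3 and 98.3% for Pygl. Pkm-201 took 88.2% by kallisto and 86.7% by RSEM. Lower minus upper glycolysis was 2.76 by kallisto and 2.62 with means, and lower glycolysis minus glycogen 3.74 and 3.20. Lower glycolysis minus pentose phosphate reversed, at 0.72 by kallisto and 1.06 with means. Pentose phosphate minus glycogen was 2.75 with a pseudocount of 1, 3.01 by kallisto and 2.15 with means. Where no construction is named, the cause was not tested. On protein-coding transcripts alone, a choice made after seeing the data, RSEM shares were 67.4% for Hk3, 35.4% for Pfkl, 62.3% for Pfkfb4, 97.9% for Slc16a3 and 98.6% for Pygl. The other 73 values kept their direction and stayed within the spread or within 1.5 times. Among them are values without replicate 1 or without replicate 2. With 2 libraries, each library always lies within the SD of their mean. For results given as a mean and SD, leaving out a library was therefore no check. Counting Gapdh and Eno1 with their copies was chosen after seeing the data and gave log2 ratios of -0.75 and -0.25. No paired analysis was possible because there is 1 group. Depth limits the lowest genes, such as Aldoc with 33 counts in replicate 1 and 40 in replicate 2 and Pfkfb1 with 25 and 23.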
